A study of Mytilus coruscus with 2 samples.

Results

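Of the 3465 Nrf2 peaks called in the digestive gland of the mussel *Mytilus coruscus*, 575 were intergenic peaks that lay beyond the end of their nearest gene. They were taken as every peak that the authors classed as intergenic and whose summit had a positive distance to the transcription start site (TSS), which places the nearest gene before the peak. They made up 16.6% of all peaks (Wilson 95% interval 15.4% to 17.9%) and 41.0% of the 1402 intergenic peaks (38.5% to 43.6%). The other 827 intergenic peaks lay upstream of their nearest gene, and 1556 peaks lay in introns.

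The data were 1 ChIP library, made with a custom antibody against Nrf2, and 1 input library of chromatin DNA without this selection. ChIP-seq sequences the DNA fragments that an antibody pulls down with a protein. Both libraries came from digestive gland cells fixed with formaldehyde, no treatment is listed, and the number of animals is not stated. With no replicates, no value below has a replicate error, and every interval covers counting error only.

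Nrf2 is a basic leucine zipper transcription factor that Keap1 holds in the cytoplasm and marks for breakdown in unstressed cells. Under oxidative stress it enters the nucleus, pairs with small Maf proteins and binds antioxidant response elements near genes of glutathione metabolism, detoxification and iron handling. The digestive gland is the main organ of digestion, storage and detoxification in mussels. Transcription factors bind both at promoters and far from them, and the nearest gene of a distant peak is a label of position and does not show which gene, if any, it acts on.

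Each peak has a pileup, which is the number of ChIP fragments over its summit, and a fold enrichment, which is the pileup plus 1 over the input background plus 1. In the text below, background always means that denominator, the input background plus 1. The distance counts from the TSS to the summit and so includes the length of the gene, because gene ends are not in the peak table. Positions are 1-based on the authors' unpublished genome, for which no build name is given. Gene names are the best matches in Swiss-Prot or KEGG to genes of other species.

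The peaks beyond the gene end had a median fold enrichment of 4.48 (95% interval of the median 4.36 to 4.66). The median was 4.50 (4.43 to 4.67) for upstream intergenic peaks and 4.84 (4.68 to 4.84) for intron peaks. The interval overlapped that of the upstream peaks and not that of the intron peaks, but the bounds were close, 4.66 and 4.68. With 1 peak per gene, or without the 10% of peaks highest in background, the median beyond the gene end was 4.68. The intron median was not recomputed under these alternatives. Single folds beyond the gene end ran from 1.63 to 36.8, with the middle of the distribution between 3.54 and 5.45. Their median pileup was 17 fragments (16 to 18), against 16 in upstream and 16 in intron peaks. A pileup of 17 has an exact Poisson 95% interval of 9.90 to 27.2 fragments, so that most single folds are known only coarsely.

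A fold of at least 4 was reached by 373 of the 575 peaks (64.9%, 60.9% to 68.7%), against 69.7% of all peaks in the list. The share was 67.5% in upstream peaks and 73.0% in intron peaks. The difference from upstream peaks was -2.60 percentage points (Newcombe 95% interval -7.66 to 2.40), which includes no difference. The difference from intron peaks was -8.14 points (-12.7 to -3.72). A −log10 q of at least 3 was reached by 431 peaks (75%), against 74.2% of all peaks.

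At the high end the order against upstream peaks was different. A fold of at least 10 was reached by 20 peaks beyond the gene end (3.48%, 2.26% to 5.31%), against 2.48% of all peaks. Only 11 upstream intergenic peaks (1.33%) passed it, a difference of 2.15 points (0.551 to 4.07). The fold of 10 was not a planned cut, and some of the 20 peaks lay beyond the same gene, which the interval ignores. Introns held 46 such peaks (2.96%), and the difference from all peaks outside the set was 1.19 points (-0.166 to 3.09). Of the 10 peaks with the highest fold in the whole list, 5 lay beyond a gene end, 3 in introns and 2 upstream. Of the 20 highest, 6 lay beyond a gene end, 10 in introns and 3 upstream. Of the 10 longest peaks, 5 also lay beyond a gene end, and of the 20 longest, 6 did and 8 lay in introns. Peaks beyond the gene end made up 16.6% of the whole list.

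The background was wider in range beyond the gene end than in introns. Its median was 3.67 beyond the gene end, 3.67 upstream and 3.04 in introns, and its upper decile began at 17.9 beyond the gene end, 12.6 upstream and 8.12 in introns. Among the tenth of all peaks with the highest background, above 10.8, were 91 peaks beyond the gene end (15.8%, 13.1% to 19.0%). The share was 13.7% in upstream peaks and 6.11% in intron peaks. It differed by 9.72 points (6.67 to 13.1) from introns and by 2.16 points (-1.56 to 6.04) from upstream peaks. The part of background in the lower share of peaks past a fold of 4 was not tested.

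**Figure D1:**
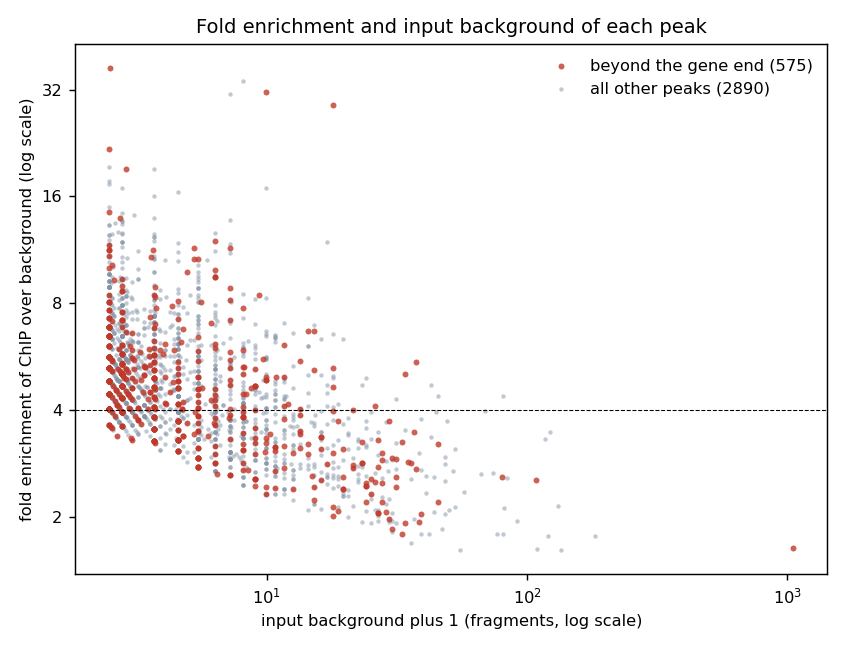
Fold enrichment (vertical, log scale) against input background plus 1 in fragments (horizontal, log scale), 1 point per peak, with the 575 peaks beyond the gene end in red and the 2890 other peaks in grey; the dashed line marks a fold of 4. Red points include the highest fold in the list, 36.8 at a background of 2.5, and the highest background, 1053 at a fold of 1.63.

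Peaks beyond the gene end had a median length of 324 bp (306 to 349 bp), against 298 bp (289 to 312 bp) for upstream peaks and 321.5 bp (309 to 331 bp) for intron peaks. The interval overlapped both others. With 1 peak per gene the median was 306 bp. Without genes nearest to at least 3 such peaks, an alternative chosen after seeing the data, it was 306.5 bp. A length of at least 500 bp was more frequent, in 135 of the 575 peaks (23.5%), against 17.9% of upstream peaks, a difference of 5.58 points (1.29 to 9.97). From intron peaks (18.3%) the difference was 5.16 points (1.32 to 9.24). At 1000 bp and above the share was 2.43% beyond the gene end and 2.32% in all other peaks.

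The distance from the TSS had a median of 21910 bp (19965 to 24256 bp) beyond the gene end. Upstream intergenic peaks had a median distance of -13902 bp (-14991 to -12820 bp). The smallest distance beyond a gene end was 1546 bp, at a gene with an uncharacterized match (M.coruscus_chr11_1935, fold 3.22), followed by 2075 bp at a gene matching sodium/calcium exchanger 2, which moves calcium out of cells (M.coruscus_chr8_0022, fold 3.79). On the other side of the rule, the closest upstream intergenic peak lay at -3024 bp, since peaks up to 3000 bp before the TSS were classed as promoter. The farthest summit lay 280676 bp from the TSS of a gene whose KEGG match is SENP1, a SUMO protease (M.coruscus_chr5_1151, pileup 11, fold 4.84). The next on chromosome 5 was at 153753 bp from an unnamed gene (M.coruscus_chr5_1161, fold 5.24). A histone deacetylase match (M.coruscus_chr1_3780) had a summit at 148649 bp with a fold of 2.55. The ubiquitin ligase match UBR3 (M.coruscus_chr2_2553) had summits at 134120 bp and 119705 bp with folds of 5.04 and 3.07.

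The balance between the sides of a gene changed with distance. At 3000 to 5000 bp there were 21 peaks beyond the gene end and 93 upstream, so that 18.4% of intergenic peaks lay beyond the gene. The share was 27.5% at 5000 to 10000 bp, 38.6% at 10000 to 20000 bp, 49.9% at 20000 to 40000 bp, 54.0% at 40000 to 80000 bp and 64.6% above that. The gene body takes up part of the distance only on the far side, and how much of this order it accounts for was not tested. The fold had no steady order with distance. Its median beyond the gene end was 5.18 at 3000 to 5000 bp, 4.01 at 5000 to 10000 bp, 4.68 in each of the next pair of bins, 4.36 at 40000 to 80000 bp and 4.17 above.

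**Figure D2:**
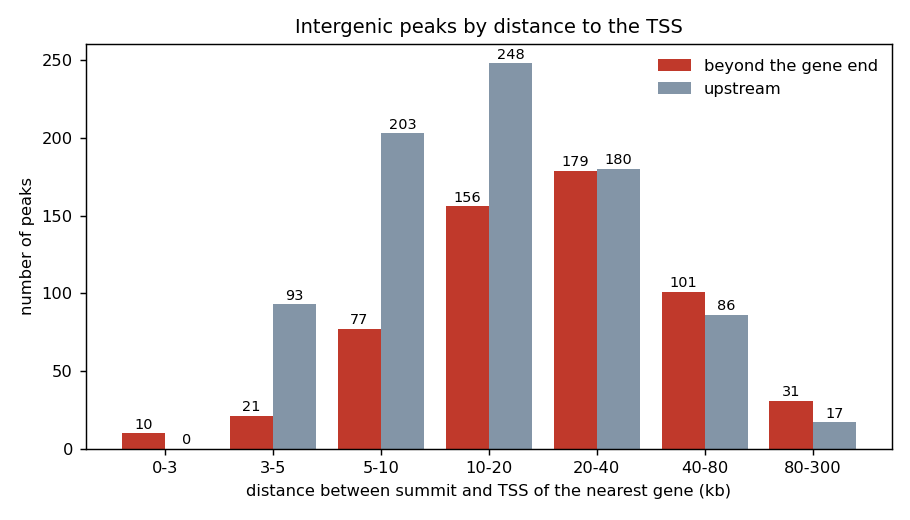
Number of intergenic peaks (vertical) by absolute distance between summit and TSS in kb (horizontal), with peaks beyond the gene end in red and upstream peaks in grey. Upstream peaks are more numerous up to 20 kb, the counts are 179 and 180 in the bin up to 40 kb, and peaks beyond the gene end are more numerous farther out; the bin up to 3 kb holds no upstream peak because of the promoter class.

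Nearest genes of these peaks were less often recognisable than those of gene-body peaks. A match in at least 1 of 4 databases was given for 468 peaks (81.4%, 78.0% to 84.4%), against 83.0% of upstream and 95.4% of intron peaks. A Swiss-Prot or KEGG name was given for 355 peaks (61.7%), against 63.7% of upstream and 89.1% of intron peaks. Both intergenic sides were alike within counting error, with a difference in database matches of -1.56 points (-5.71 to 2.46). Peaks beyond named genes had a median distance of 24347 bp (21614 to 27313 bp). For peaks beyond genes without a name it was 18672.5 bp (16137 to 21638 bp), and the intervals overlapped narrowly. The median folds of these groups were 4.50 and 4.43, with overlapping intervals.

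The highest fold enrichment of the whole list lay beyond a gene with no match in any of the databases (M.coruscus_chr9_2173, chromosome 9, 93683075 to 93684311). This peak was 1237 bp long and had 91 ChIP fragments over a background of 2.5, which gave a fold of 36.8 (29.7 to 45.1 from the Poisson interval of the pileup). A second peak beyond the same gene (93684517 to 93685009) had 53 fragments and a fold of 21.8 (16.4 to 28.3), the sixth highest of all peaks. Their summits stood 771 bp apart, 13906 bp and 13135 bp from the TSS, so they form a single locus with low background on both summits.

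The next loci carried more input signal. The peak beyond a gene matching TMEM184C, a membrane protein with several spans (M.coruscus_chr4_0423, chromosome 4, 16981142 to 16982248), had 311 fragments over a background of 9.90, a fold of 31.5 (28.1 to 35.2), and no other summit lay within 379925 bp. Beyond the gene matching the reverse transcriptase of the X-element, a mobile element first described in *Drosophila* (M.coruscus_chr11_2487), 3 peaks followed each other. The first (chromosome 11, 98587637 to 98591101) was the longest member at 3465 bp and had 519 fragments over a background of 17.9, a fold of 29.0, while those at 11803 bp and 13676 bp from the TSS had 38 and 30 fragments with folds of 10.8 and 8.33. KEGG gives this gene another name, sarcosine oxidase, so its identity is uncertain.

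A gene matching the neuronal acetylcholine receptor subunit alpha-3, part of a ligand-gated cation channel (M.coruscus_chr8_0285), had 3 peaks beyond its end. At 69017, 70343 and 71550 bp their pileups were 30, 20 and 54 fragments, with folds of 8.45, 7.56 and 19.2. The same gene had intron peaks at 243 bp (fold 6.80) and 3034 bp (fold 4.03) and an upstream peak at -9776 bp (fold 3.54). By fold the 3 distant summits were thus above the others of this gene, while by pileup the intron peak at 243 bp, with 22 fragments, stood above the summit at 70343 bp.

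Further single peaks above 10-fold were spread over genes of unlike roles. Iduronate 2-sulfatase, a lysosomal enzyme that degrades glycosaminoglycans (M.coruscus_chr4_0403), had a peak with 35 fragments and a fold of 14.5 at 12859 bp and another with 28 fragments and a fold of 4.01 at 11781 bp. An unnamed gene on chromosome 3 (M.coruscus_chr3_3369) had 37 fragments and a fold of 13.9 at 43302 bp, in the last peak of that chromosome. Chromodomain Y-like protein 2, a reader of histone marks (M.coruscus_chr10_2491), and ADP-ribosylation factor 2, a GTPase of vesicle budding (M.coruscus_chr2_3105), each had 27 fragments and a fold of 11.3.

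A receptor gene and a SUMO pathway gene were also among them. A Gq-coupled rhodopsin, a light receptor (M.coruscus_chr10_0116), had peaks at 17065 bp and 18232 bp with folds of 10.1 and 6.45. RWDD3, a protein that promotes SUMO conjugation in mammals (M.coruscus_chr1_0323), had a broad peak of 2965 bp with 55 fragments and a fold of 10.7. These counts give wide intervals, for example 8.08 to 13.8 for the fold of the RWDD3 peak.

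Of the 5 highest pileups, those of the X-element and TMEM184C loci had high folds and the other 3 had little enrichment. Beyond an unnamed gene (M.coruscus_chr1_0044, chromosome 1, 2512771 to 2513127) lay 1712 fragments over a background of 1053, which is a fold of 1.63, the lowest of the members. Upstream of the same gene were 5 more peaks with pileups of 51 to 92. A gene with a zinc finger SWIM domain match (M.coruscus_chr12_1969) had 272 fragments over a background of 108, a fold of 2.53. An unnamed gene (M.coruscus_chr6_0513) had 207 fragments over 80.2, a fold of 2.59. At these 3 loci the input signal was high as well.

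The 575 peaks belonged to 432 nearest genes. Of these, 354 had a single peak beyond their end, 46 had 2, 17 had 3 and 15 had 4 or more. The 32 genes with at least 3 held 129 peaks (22.4%), while upstream 36 of 629 genes had at least 3 and held 17.9% of the upstream peaks. Another summit lay within 5000 bp of 179 peaks beyond the gene end (31.1%), against 31.1% of upstream and 26.9% of intron peaks. Peaks beyond 1 gene share their locus and are not separate tests of it.

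Genes with many peaks had more input signal beneath them. The 129 peaks of genes with at least 3 had a median background of 5.59 (4.66 to 8.12), against 3.54 (3.04 to 3.67) for the 446 peaks of genes with 1 or 2. Their median pileup was 31 fragments (24 to 37), against 15 (15 to 16). Their median fold was 4.43 (4.06 to 4.99), against 4.50 (4.35 to 4.68). ChIP and input signal were thus both higher at these loci and the ratio was not distinguishable.

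**Figure D3:**
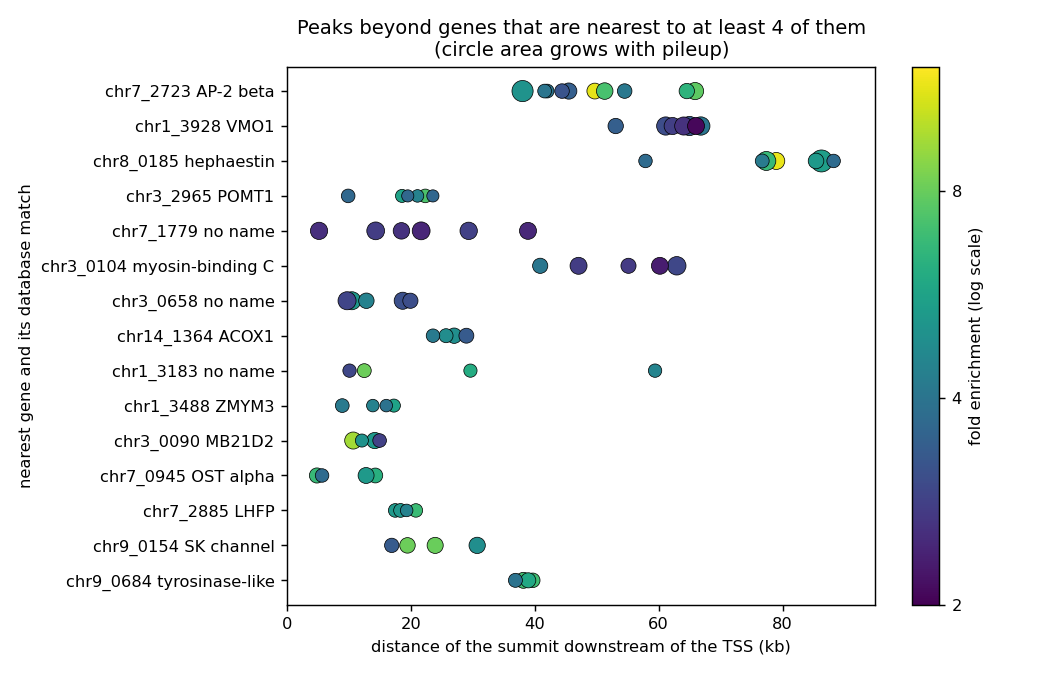
Peaks beyond the 15 genes nearest to at least 4 of them: each circle is a peak at its distance from the TSS in kb (horizontal), its area grows with the pileup and its colour gives the fold on a log scale. Peaks of a gene form tight groups for the tyrosinase-like gene (36863 to 39661 bp) and wide ones for AP-2 beta (38015 to 65878 bp).

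Among these 15 genes were proteins of membrane traffic, metal handling and lipid metabolism. The gene matching the beta subunit of AP-2, an adaptor of clathrin-coated vesicles (M.coruscus_chr7_2723), had 10 peaks over 27863 bp. The peak with the most fragments, 170, was the nearest one at 38015 bp, with a background of 33.9 and a fold of 5.04. The highest fold, 11.3, came from 40 fragments over a background of 3.64 at 49687 bp, so the order by pileup and by fold differed within the locus.

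Hephaestin, a copper-dependent ferroxidase of iron export (M.coruscus_chr8_0185), showed the same. Its 7 peaks lay 57869 to 88254 bp from the TSS. The summit at 86288 bp had 203 fragments and a fold of 5.44, and that at 78989 bp had 59 fragments and a fold of 11.4. Acyl-CoA oxidase 1, the first enzyme of peroxisomal fatty acid oxidation (M.coruscus_chr14_1364), had 4 peaks at 23551 to 28943 bp with folds of 3.33 to 4.84. The alpha subunit of an organic solute transporter, which exports bile acids and steroids in vertebrates (M.coruscus_chr7_0945), had 4 peaks at 4804 to 14235 bp with folds of 3.72 to 6.75.

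A gene matching a tyrosinase-like protein, a copper enzyme known from mollusc shells (M.coruscus_chr9_0684), had 4 peaks within 2798 bp. Their folds were 3.96, 7.04, 5.87 and 6.99 with increasing distance. Another gene with this match (M.coruscus_chr9_2277) had a single peak with 25 fragments and a fold of 10.3 at 34169 bp. The small conductance calcium-activated potassium channel, which damps firing in excitable cells (M.coruscus_chr9_0154), had 4 peaks at 16886 to 30685 bp with folds of 3.32 to 8.12. MB21D2 (M.coruscus_chr3_0090) had 4 at 10666 to 14929 bp, and the nearest had the highest fold, 9.47. LHFP, a membrane protein with several spans (M.coruscus_chr7_2885), had 4 at 17450 to 20788 bp with folds of 4.43 to 6.85. ZMYM3, a zinc finger protein bound to chromatin (M.coruscus_chr1_3488), had 4 at 8897 to 17232 bp with folds of 3.96 to 5.64. In KEGG, the MB21D2 gene matches cyclic GMP-AMP synthase and the ZMYM3 gene a KCTD protein. The 4 peaks beyond an unnamed gene (M.coruscus_chr1_3183) were spread over 10073 to 59416 bp, with folds of 2.94 to 8.06.

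Other multi-peak loci were low in fold throughout. The egg coat protein match VMO1 (M.coruscus_chr1_3928) had 7 peaks with folds of 2.06 to 4.01 over backgrounds of 10.2 to 33.0. They were the last peaks of chromosome 1. KEGG matches this gene to a proteasome beta subunit, so its identity is uncertain. An unnamed gene (M.coruscus_chr7_1779) had 6 peaks, none of which reached a fold of 4. A gene whose KEGG match is myosin-binding protein C of muscle (M.coruscus_chr3_0104) had 5, with folds of 2.32 to 4.07, and so had another unnamed gene (M.coruscus_chr3_0658), with folds of 2.89 to 5.19 at 9669 to 19900 bp. In contrast, 5 of the 6 peaks beyond a gene matching protein O-mannosyltransferase 1, which starts a form of glycan on secreted proteins (M.coruscus_chr3_2965), had the lowest background in the list, 2.48, with pileups of 8 to 17 and folds of 3.63 to 7.26. That lowest level was shared by 119 of the 575 peaks (20.7%) and by 24.5% of all peaks.

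In the whole list, 556 genes had 2 or more peaks of any kind. How often genes of the other classes had peaks elsewhere was not computed, so the counts here are not read as a trait of this set. No peak of another class was listed for 395 of the 432 genes. Of the other 37, introns held a peak in 20, the upstream intergenic side in 13, the downstream class in 7, promoters in 4 and exons in 3. In 25 genes with a peak inside the gene or in the downstream class, that peak lay nearer to the TSS than every peak beyond the end, as the label requires. The gap between them had a median of 14352 bp and ran from 618 bp to 65983 bp.

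The 4 genes with a promoter peak as well had folds of 2.72 to 5.51 beyond their end and of 2.51 to 6.0 in the promoter. An unnamed gene (M.coruscus_chr5_2900) had folds of 5.24 and 4.42 beyond its end and 5.64 and 6.0 in the promoter. Another unnamed gene (M.coruscus_chr8_0320) had a fold of 5.51 beyond its end and 5.24 in the promoter. A gene matching the Arf GTPase-activating protein AGAP2 family in KEGG (M.coruscus_chr11_2521) had a fold of 2.84 at 6305 bp and 2.51 in the promoter, with more peaks upstream, in an intron and in an exon. The remaining gene (M.coruscus_chr14_1406) had 101 fragments and a fold of 2.72 at 25881 bp and a fold of 3.79 in the promoter.

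The strand of a gene could be derived where it had at least 2 peaks. All 556 such genes in the list fitted a single TSS within 2 bp, which places the distances on the summits. For 28 peaks beyond a gene end, the next gene along the chromosome was located too, and in all 28 the summit was nearer to its own TSS than to the next, as the assignment to the nearest gene requires. The next gene was on the same strand in 21 of them and on the opposite strand in 7. These are counts of peaks and not of gene pairs, because peaks beyond the same gene share its next gene. The 7 came from M.coruscus_chr12_1969, M.coruscus_chr14_1364 and M.coruscus_chr8_0320 alone. No share over other neighbouring genes was computed. The peak beyond a gene matching lachesin, a cell adhesion protein of insects (M.coruscus_chr8_2140), lay 88880 bp from its own TSS and 96015 bp from the next one.

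Gene families were counted with 19 word lists over the names of the nearest genes. At least 1 list took in 177 peaks beyond the gene end (30.8%) and 36.6% of all other peaks. Since fewer of these genes had a name than those of all other peaks, the share among upstream peaks, where names were about as frequent, is given too. Lists overlap, some genes match by word only, and a list misses members whose names lack its words.

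Enzymes of antioxidant defence and detoxification, the textbook targets of Nrf2, were nearest to 5 peaks (0.87%), against 1.69% of upstream and 1.52% of all other peaks. The difference from all other peaks was -0.65 points (-1.37 to 0.56). They belonged to 3 genes. Glutathione peroxidase 3, which reduces peroxides outside cells (M.coruscus_chr12_0397), had 3 peaks at 4985, 6780 and 9853 bp. Their pileups were 64, 53 and 109 fragments over backgrounds of 25.9, 17.9 and 29.5. The folds were 2.51, 3.02 and 3.73, all below 4. A cytochrome P450 3A match, an enzyme that oxidises foreign compounds (M.coruscus_chr6_0563), had 16 fragments and a fold of 4.63. The last was a protein-tyrosine sulfotransferase (M.coruscus_chr7_0941) with a fold of 5.53, which modifies secreted proteins and is no detoxification enzyme.

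No gene of the Nrf2 and Keap1 list was nearest to a peak of any class. ABC transporters, pumps that export drugs and conjugates, were nearest to 0 of the 575 peaks (upper bound 0.66%) and to 0.35% of all other peaks. Solute carriers were nearest to 6 peaks of 6 genes (1.04%), against 1.33% of upstream and 2.21% of all other peaks. The highest fold among them was 6.84 at a sodium-dependent glucose transporter (M.coruscus_chr13_0111), followed by 5.35 at an organic anion transporter (M.coruscus_chr3_3239). With the organic solute transporter gene described above, which the words miss, the count was 10 peaks of 7 genes (1.74%), against 1.45% of upstream and 2.28% of all other peaks. None of these ABC transporter and solute carrier differences was distinguishable from 0 within counting error.

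Protein kinases, enzymes that relay signals by phosphorylation, had the largest negative difference from all other peaks among the 19 word lists. By the words of the list, 3 peaks lay beyond a kinase match (0.52%, 0.18% to 1.52%), against 2.30% of upstream and 4.08% of all other peaks. In KEGG the 3 genes matched the membrane scaffold CASK (M.coruscus_chr14_1713, fold 4.84), the stress kinase OSR1 (M.coruscus_chr2_3314, fold 4.43) and the receptor Tie-1 (M.coruscus_chr7_2654, fold 3.12). The words miss kinases that KEGG shows by enzyme class, and with that class added, a choice made after seeing the data, 10 peaks of 9 genes counted (1.74%), against 3.26% of upstream and 5.05% of all other peaks. The difference from upstream peaks was -1.78 points (-3.08 to -0.48) by words and -1.53 points (-3.17 to 0.23) with the class added, which includes no difference. From all other peaks it was -3.56 points (-4.42 to -2.36) by words and -3.31 points (-4.48 to -1.70) with the class added.

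Adhesion and extracellular matrix genes were nearest to 19 peaks (3.30%), against 3.39% of upstream and 5.33% of all other peaks. Innate immunity genes were nearest to 3 (0.52%), against 1.81% of upstream and 1.63% of all other peaks, and included a Toll-like receptor match 2522 bp from its peak (M.coruscus_chr3_2210, fold 5.64). Proteases were nearest to 4 (0.70%), against 0.73% of upstream and 1.83% of all other peaks. With 19 lists compared, intervals that end close to 0, such as -1.74 to -0.03 points for innate immunity, carry little weight.

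Vesicle traffic and small GTPase genes were nearest to 16 peaks (2.78%), against 1.21% of upstream and 1.66% of all other peaks. The AP-2 beta gene gave 10 of the 16. Counted by gene, the share was 1.62%, against 1.76% of the genes nearest to other peaks. Other members were a Rac match, a GTPase of the actin cytoskeleton (M.coruscus_chr10_2547, fold 7.26), and sorting nexin-16 of endosomes (M.coruscus_chr5_0365, fold 4.43).

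Zinc finger and transcription factor genes were nearest to 25 peaks of 18 genes (4.35%), against 3.51% of upstream and 3.49% of all other peaks. Of the 25, 20 reached a fold of 4, which 64.9% of the 575 peaks and 69.7% of all peaks did. A gene matching the basic helix-loop-helix factor TCF24 in Swiss-Prot and a KCTD protein in KEGG (M.coruscus_chr1_0059) led with 75 and 57 fragments and folds of 12 and 10.6 at 26954 bp and 29920 bp. Another zinc finger gene (M.coruscus_chr5_2788) had folds of 10.9, 6.81 and 5.05. Lhx6, a LIM homeobox factor of neuron development in vertebrates (M.coruscus_chr4_0275), had 12 fragments and a fold of 5.24.

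Chromatin genes were nearest to 13 peaks (2.26%), against 1.57% of upstream and 1.56% of all other peaks. After the chromodomain gene, the highest folds were 6.45 at a gene with a SETD2 match in KEGG (M.coruscus_chr5_2186) and 5.40 at a histone deacetylase match (M.coruscus_chr1_3780). The latter gene had another peak, at 148649 bp, with a fold of 2.55. Mobile element proteins were nearest to 11 peaks of 9 genes (1.91%), against 0.73% of upstream and 1.14% of all other peaks, with differences of 1.19 points (-0.01 to 2.72) and 0.77 points (-0.19 to 2.29). Ubiquitin, SUMO and TRIM genes were nearest to 22 peaks of 21 genes (3.83%), against 3.87% of upstream and 3.91% of all other peaks, led by a TRIM33 match (M.coruscus_chr9_2473, fold 6.15).

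By words, the interval of the difference from all other peaks left out 0 only for protein kinases, adhesion and matrix genes, and innate immunity. Those of adhesion and innate immunity ended close to 0, at -0.07 and -0.03 points. For every other list, above and below, the interval included 0. Cytoskeleton and motor genes were nearest to 16 peaks (2.78%), against 3.63% of upstream and 2.80% of all other peaks. Ion channels were nearest to 9 (1.57%), against 1.45% and 1.63% in the same order, G protein-coupled receptors to 7 (1.22%), against 1.81% and 1.18%, and glycan enzymes to 11 (1.91%), against 1.09% and 1.59%. RNA processing and translation genes were nearest to 15 (2.61%), against 3.02% and 3.18%, and heat shock proteins and chaperones to 3 (0.52%), against 0.60% and 0.73%. Of the ion channel peaks, 7 came from the acetylcholine receptor and potassium channel genes described above. A somatostatin receptor match, a receptor for a peptide hormone (M.coruscus_chr10_2575), had the most fragments among the receptor peaks, 57, and a fold of 4.97.

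**Figure D4:**
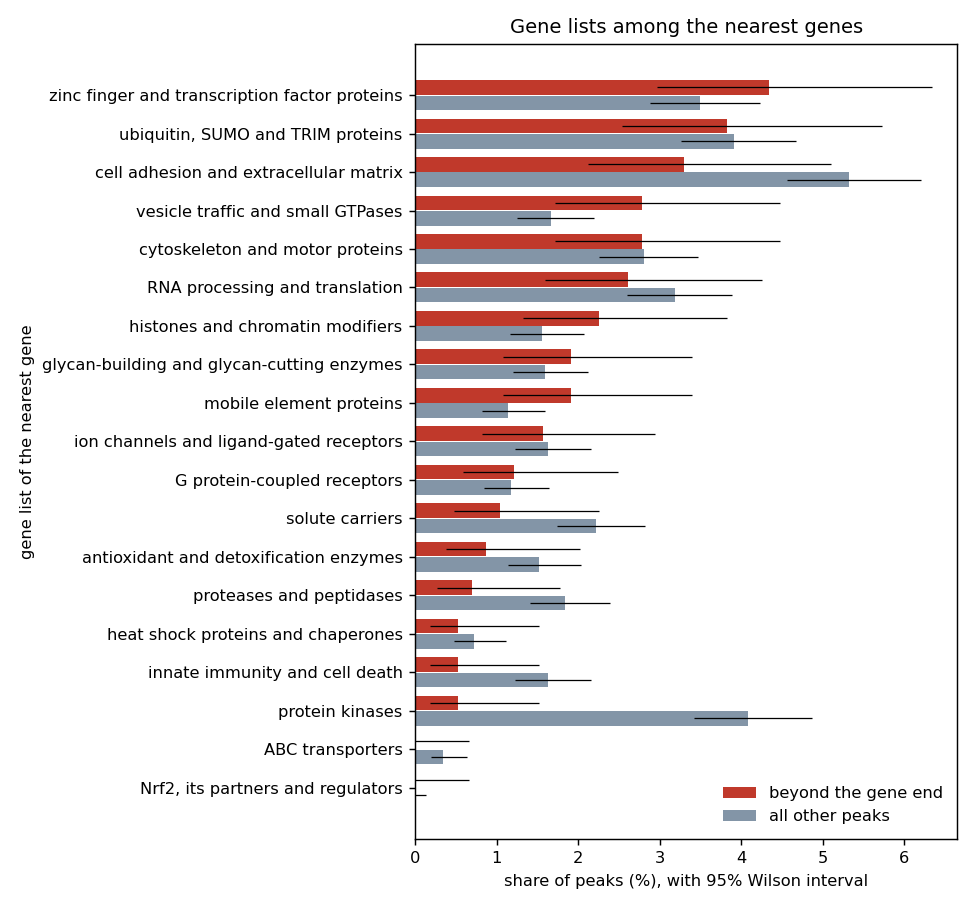
Share of peaks in percent (horizontal) whose nearest gene falls in each of the 19 gene lists, for peaks beyond the gene end in red and all other peaks in grey, with Wilson 95% intervals as lines. The intervals of protein kinases as matched by words (0.52% and 4.08%) stand apart, and those of every other list overlap.

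Peaks beyond the gene end were found on all 14 chromosomes, with 72 on chromosome 1 and 22 on chromosome 10. Their share of all peaks of a chromosome ran from 10.6% on chromosome 10 to 19.7% on chromosome 12. As a share of intergenic peaks it was lowest on chromosome 6 (26.9%, 19.4% to 35.9%) and highest on chromosome 7 (49.4%, 39.2% to 59.7%), followed by chromosome 2 (49.1%). Peaks beyond the gene end had the highest median background on chromosome 14, 7.23, and 5.45 on chromosome 7. A further 2 lay on an unplaced scaffold.

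**Figure D5:**
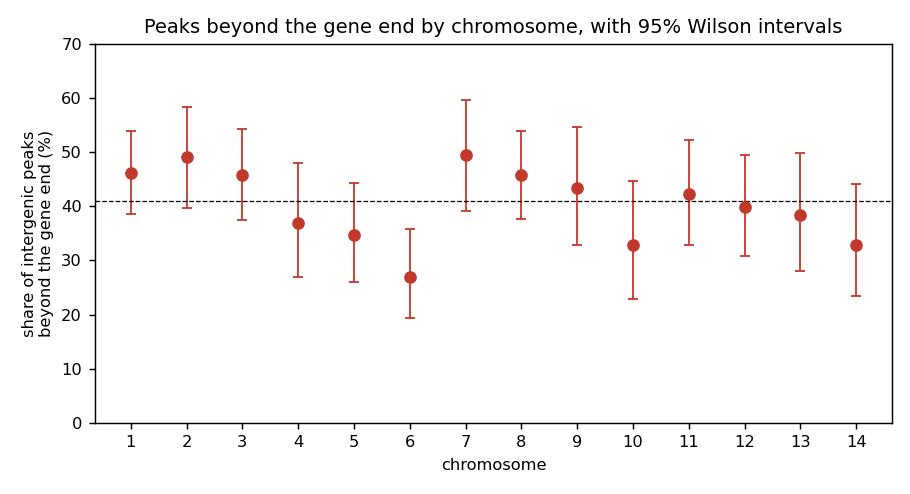
Share of intergenic peaks that lie beyond the gene end in percent (vertical) for each of the 14 chromosomes (horizontal), as points with Wilson 95% intervals; the dashed line marks the share over the whole list, 41.0%. The interval of chromosome 6 lies below the line, and those of the other chromosomes include it.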

How the data were processed

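Digestive gland chromatin of *M. coruscus* was measured in 1 ChIP and 1 input library. Trimmomatic 0.36 (trimming), FastQC (quality), Bowtie2 2.5.1 (alignment) and MACS3 3.0.0a7 (peaks, with the input as control) are the authors' tools, per the submitters' processing notes and the study's methods. How duplicates were handled and which q threshold applied was not stated, and the lowest deposited −log10 q was 1.32. In the table deposited by the authors, the signal is the ChIP pileup at the summit and the fold enrichment is a ratio to the input background. Sequencing depth is not in the table, and the number of fragments at a summit limits the precision.

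Background was computed as (pileup + 1) / fold enrichment. Shares carry Wilson and differences Newcombe 95% intervals, medians have order-statistic intervals, and folds have Poisson intervals of the pileup with the background held fixed. Neighbouring peaks are not independent, which the intervals ignore, and no p-values were computed. The interval functions were tested on simulated data. SciPy 1.17.1, NumPy 2.4.6 and pandas 2.3.3 were run under Python 3.11.15, with figures from Matplotlib 3.10.9. The reference gene table at hand is of another assembly, matched 0 gene identifiers and was not used, and no sequence was read.

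The set of peaks and the 19 gene lists, matched as words in Swiss-Prot and KEGG names, were chosen with earlier results of these data known. Named genes were, among these peaks, the 12 highest folds, the 10 highest with a name, the 5 highest pileups, the 5 longest, the 5 nearest to and 5 farthest from the TSS, every gene with at least 4, genes with a promoter peak, and up to 4 peaks per list. Other peaks of a named gene were added, and 1 item is not reported here. Alternatives were keeping folds of at least 4, keeping −log10 q values of at least 3, dropping the 10% of all peaks highest in background, 1 peak per gene, merging summits within 1000 bp, a limit of 10000 bp, other databases, and, chosen after seeing the data, leaving out genes with at least 3 such peaks and widening the lists of kinases and solute carriers.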

Additional observations from a re-analysis of the deposited data

How the results depend on the processing

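No paired analysis was possible because each group has 1 library, and for the same reason no replicate could be left out. Of 64 main values recomputed under the alternatives, 46 stayed within their interval or within 1.5 times the count and 18 moved; all are counts, shares or medians, and no difference between classes was recomputed. With a −log10 q of at least 3, the median fold was 4.94, the median length 352 bp and the median pileup 20 fragments. With a fold of at least 4, 373 peaks were left, the median background was 2.78 and 45 genes had more than 1 peak. Without the 10% of peaks highest in background, the median fold was 4.68 and the median pileup 15. With 1 peak per gene, the median fold was 4.68 and the median background 3.28. Within 10000 bp of the TSS, 26.7% of intergenic peaks lay beyond the gene end. Without genes nearest to at least 3 such peaks, an alternative chosen after seeing the data, the peaks were 13.4% of all and 35.1% of intergenic peaks, the median background was 3.54, the median pileup 15, and 46 genes had more than 1 peak; these shares fall by construction, since upstream peaks were not thinned in the same way. With Swiss-Prot and KEGG alone 61.7% of peaks had a database match, and 19.1% were in a gene list when Swiss-Prot was the only source of names. Of the 59 recomputed list counts, 45 stayed within 1.5 times and 14 moved, among them protein kinases and solute carriers, each 10 peaks when their lists were widened. Most peaks rest on few fragments, and the single library pair limits every value to these libraries.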

Other observations

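Some Swiss-Prot entries were matched by more than 1 gene with a peak beyond its end, 9 entries in all. They are named here with their values already known. Ankyrin-1, a linker of membranes to the cytoskeleton, was matched by 3 genes, of which M.coruscus_chr12_0163 had 3 peaks at 48897, 50930 and 51947 bp with folds of 4.06, 4.32 and 5.22, M.coruscus_chr11_2520 had a fold of 5.27 and M.coruscus_chr6_2483 a fold of 3.27. The histone H4 methyltransferase SETD8 was matched by a gene with a peak at 91694 bp (M.coruscus_chr7_0976, fold 4.68) and by one with 2 peaks of low fold, 3.35 and 2.69 (M.coruscus_chr12_1896). Glucose dehydrogenase was matched by genes with folds of 4.96 (M.coruscus_chr12_0008) and 4.84 (M.coruscus_chr8_0911).

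A gene matching C/EBP gamma, a basic leucine zipper factor (M.coruscus_chr5_2910), likewise picked with its values known, had peaks at 10009 bp and 11155 bp with 27 and 14 fragments and folds of 4.42 and 4.48.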
